A study of Mus musculus with 10 samples.

Results

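The fibroblast growth factor receptor genes Fgfr1, Fgfr2, Fgfr3 and Fgfr4 and the ligand genes Fgf1, Fgf2, Fgf5, Fgf7, Fgf10 and Fgf18 were described in 10 cell lines of mouse small cell lung cancer. The 10 genes were taken by symbol from the deposited expression table, out of 21215 named genes, and every probe that carries one of the symbols was kept, which gave 21 of 41174 probes. The genes were picked with earlier results on the same Mes and Epi lines in view. Their differences between the groups, and the calls given for them below, are thus a description.

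Messenger RNA was measured on Agilent 1-colour mouse arrays in 5 lines of a group named Mes and 5 lines of a group named Epi. Each line was grown from a single clone of a mouse tumour of the non-neuroendocrine kind of small cell lung cancer, a lung tumour type that usually makes hormone and nerve cell proteins. The genetic background is given as RbL/L, Trp53L/L for the Mes and the Epi lines alike (alleles of the tumour suppressor genes Rb and Trp53 with loxP sites), and all were grown untreated in RPMI1640 medium with serum. The labels do not spell out the group names, which Cre opened the alleles, or how many tumours the clones stem from, so the spread and the p-values below measure variation between these lines only.

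Fibroblast growth factors are secreted proteins that bind receptor tyrosine kinases together with heparan sulfate, a sugar chain on the cell surface. The bound receptors signal through the adaptor Frs2 to the MAP kinase cascade, which switches on the ETS transcription factors Etv1, Etv4 and Etv5 and the feedback inhibitors of the Sprouty and Dusp families. In the developing lung, Fgf10 and Fgf7 are made by mesenchyme and act on a splice form of Fgfr2 that epithelium makes, which drives airway branching and epithelial growth.

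Vim, Fn1, Cdh2, Zeb1 and Twist1, markers of mesenchymal cells, were well above background on all 10 arrays, and Vim averaged 16.16 ± 0.29 log2 units in Mes and 16.27 ± 0.39 in Epi lines (SD, n = 5 each). Of 5 epithelial markers none was above background on all 10 arrays. Epcam and Cldn4 were on no array, the adherens junction gene Cdh1 was above background in 0 Mes and 3 Epi lines, Krt8 in 0 Mes and 4 Epi lines and Krt18 in 4 Mes and 5 Epi lines. The neuroendocrine marker Syp gave 3.80 ± 0.47 in Mes and 3.89 ± 0.38 in Epi lines. Among the endothelial markers, Pecam1 and Cdh5 were on no array. Kdr was above background in 4 Mes and 2 Epi lines and Tek in 3 Mes and 4 Epi lines. Among the leukocyte markers, Cd3e and Cd68 were above background on all 10 arrays, with Cd3e at 4.77 ± 0.36 in Mes and 4.96 ± 0.22 in Epi lines, while Ptprc was above background in 0 Mes and 1 Epi line. Between 60.4% and 64.4% of the probes were well above background per array, and 14 to 17 of the 21 probes described here. Mes2 and Mes3 resembled each other (r = 0.985 across probes), as did Epi3, Epi4 and Epi5 (0.979 to 0.983), where the other pairs within the Mes group went down to 0.939 and those within the Epi group to 0.953.

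The promoters of Fgfr2 and Fgf7 are shown because these genes had the largest differences between the groups among the receptors and among the ligands. Both are the 250 bases before the RefSeq start in GRCm38.p6, 5′ to 3′ on the strand of the gene, with CpG dinucleotides in capitals. The Fgfr2 window is chr7:130266809-130267058 on the minus strand, and the Fgf7 window is chr2:126034408-126034657 on the plus strand.
Fgfr2: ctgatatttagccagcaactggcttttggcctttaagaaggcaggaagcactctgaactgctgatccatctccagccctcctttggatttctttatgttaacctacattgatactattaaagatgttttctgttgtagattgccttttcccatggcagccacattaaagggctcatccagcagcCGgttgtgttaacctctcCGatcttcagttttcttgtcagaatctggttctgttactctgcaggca
Fgf7: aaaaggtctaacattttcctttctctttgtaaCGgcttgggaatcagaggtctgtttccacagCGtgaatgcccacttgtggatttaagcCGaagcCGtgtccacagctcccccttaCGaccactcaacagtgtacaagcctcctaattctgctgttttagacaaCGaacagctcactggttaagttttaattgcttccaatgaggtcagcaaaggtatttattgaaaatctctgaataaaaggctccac
The Fgfr2 window held 2 CpG dinucleotides and 44% GC, and 18.8% of 32851 RefSeq promoter windows of the same length held fewer CpG. The Fgf7 window held 6, which is also the median of all windows, and 43.6% GC. In contrast, the Fgf18 window held 37 CpG, more than 97.8% of all windows, and the Fgf2 and Fgf5 windows held 20 and 24. Motifs were searched by their letters on both strands, with overlaps allowed. The TATA box letters TATAAA occurred in 12.4% of all windows. The GC box letters GGGCGG occurred in 32.7% of windows. An E box, spelled CACCTG here, occurred in 17.2%. An ETS site, spelled CCGGAAG here, occurred in 6.91%. The Fgfr2 and Fgf7 windows held none of these 4, and the GC box letters were found in the windows of Fgfr3, Fgfr4, Fgf2, Fgf5, Fgf10 and Fgf18. Promoters were matched for 8 of the 10 genes, and Fgfr1 had no entry in the table.

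Among the receptors, Fgfr2 set the lines apart. Its brightest probe (chr7:137306712-137306771, minus strand, mm9) gave 1.32, 0.17, 0.16, 1.01 and 0.17 log2 units in Mes1 to Mes5, against 5.78, 5.79, 9.0, 9.74 and 8.49 in Epi1 to Epi5. It was well above background in none of the Mes lines and in all 5 Epi lines, and the values of the groups did not overlap. Within the Epi group, Epi3, Epi4 and Epi5 lay well above Epi1 and Epi2. The means were 0.57 ± 0.56 in Mes lines and 7.76 ± 1.86 in Epi lines (SD, n = 5 each), which differ by -7.19 (Mes minus Epi, as for every difference below). Because the Mes values are under the background limit, a raised-value fold is given, which was 44.0 with the Epi signal higher. For a raised-value fold the bright group's mean is set against a raised value on each dim array. That value is the higher of the probe's own signal and the array's lowest signal well above background. The lowest signal lay between 2.0 and 2.68 over the arrays. The fold is not a minimum, since the difference was smaller under other handling of dim signals, as given below. In cultured lines measured in bulk, fewer cells with the transcript and less transcript per cell cannot be told apart.

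The other Fgfr2 probes followed the same lines. The probe at chr7:137307455-137307514 gave 0.64, 0.90, 0.80, 0.59 and 0.45 in Mes1 to Mes5 and 3.61, 3.63, 6.88, 7.81 and 6.51 in Epi1 to Epi5. Its raised-value fold was 10.5, with the Epi signal higher. The remaining probe, at chr7:137385966-137386025, gave 0.14 to 0.18 in Mes lines and 1.12, 0.15, 5.42, 6.29 and 4.41 in Epi1 to Epi5. It was above background only in Epi3, Epi4 and Epi5, the lines in which the other probes were brightest. Pairwise, the 3 probes correlated over the 10 lines at 0.88 to 0.98. Which splice form the probes read was not determined, since no exon annotation of mm9 was used here.

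The size of the Fgfr2 difference moved with the handling of dim signals, and its direction did not: it was -1.53 after normexp background correction and -3.76 with a floor of 16 on the signal. On the one slide that held both groups (Mes3, Mes4 and Epi2) it was -5.21. The 20 tested genes nearest to Fgfr2, within 1.62 Mb, had a median difference of 0.40, with 3 called, and the 1010 tested genes of chromosome 7 had a median of -0.02.

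**Figure D1:**
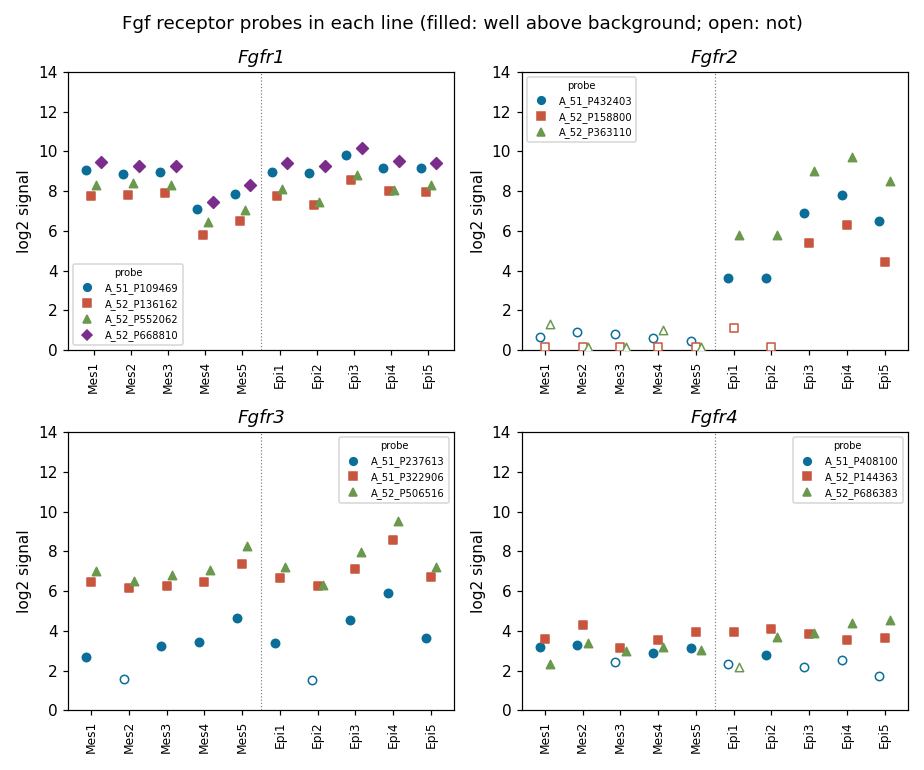
Log2 signal (y axis) of every probe of Fgfr1, Fgfr2, Fgfr3 and Fgfr4 in each line (x axis, Mes1 to Mes5, then Epi1 to Epi5, 1 array each); filled points were well above background and open points were not. All 3 Fgfr2 probes are open in the Mes lines, while the 4 Fgfr1 probes are filled in all 10 lines and low in Mes4 and Mes5.

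Fgfr1, the receptor that mesenchymal cells commonly use, was well above background with all 4 probes on all 10 arrays. The brightest (chr8:26684063-26684122, plus strand, mm9) gave 9.47, 9.29, 9.29, 7.45 and 8.29 in Mes1 to Mes5 and 9.40, 9.27, 10.17, 9.50 and 9.44 in Epi1 to Epi5. The groups overlapped: Mes1 to Mes3 lay inside the span of the Epi lines, and Mes4 and Mes5 lay below it. The means were 8.76 ± 0.86 in Mes and 9.56 ± 0.35 in Epi lines. They differed by -0.80, and by -0.47 without Mes4. The other Fgfr1 probes, at chr8:26684042-26684101, chr8:26680165-26680224 and chr8:26642756-26642815, differed by -0.85, -0.77 and -0.45, and Mes4 and Mes5 were lowest on each. Between the 4 probes the correlation over the lines was 0.929 to 0.998. Fgfr1 and Fgfr2 thus differed in where they were low, since Mes1 to Mes3 held Fgfr1 at Epi levels with no Fgfr2 signal above background.

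Fgfr3, a receptor of the same family that is active in lung epithelium and cartilage, was brightest with the probe at chr5:34078922-34078981 (plus strand, mm9). It gave 6.99, 6.53, 6.82, 7.05 and 8.29 in Mes1 to Mes5 and 7.21, 6.30, 7.97, 9.54 and 7.19 in Epi1 to Epi5. The groups overlapped over most of their span, with Epi4 highest and Epi2 lowest of all 10 lines. The means were 7.14 ± 0.67 in Mes and 7.64 ± 1.21 in Epi lines. Their difference, -0.51, was -0.03 without Epi4, and on the slide with both groups it was 0.63. A second probe (chr5:34078899-34078958) differed by -0.52, and another (chr5:34078394-34078453), above background in 4 Mes and 4 Epi lines, by -0.68. Deviations from the group means of Fgfr2 and Fgfr3 correlated at 0.66 over the 10 lines, and Epi4 was the highest line for both. Fgfr2 was above background in none of the Mes lines, so their Fgfr2 deviations come from signal under the background limit.

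Fgfr4, a receptor best known from liver, gave probes that disagreed, with correlations of -0.48 to 0.36 over the lines. The probe at chr13:55269360-55269419 (plus strand, mm9) gave 3.60, 4.30, 3.15, 3.55 and 3.95 in Mes1 to Mes5 and 3.96, 4.10, 3.86, 3.52 and 3.63 in Epi1 to Epi5, close to the background limit on every array. The groups overlapped, and the difference was -0.11 (-0.75 on the slide with both groups). The probe at chr13:55269225-55269284 differed by -0.75 and the one at chr13:55269977-55270036, above background in 4 Mes and 1 Epi line, by 0.65. No direction is given for Fgfr4.

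Among the ligands, Fgf7, also called keratinocyte growth factor, spread most within the Mes group. Its probe (chr2:125915147-125915206, plus strand, mm9) gave 13.06, 6.45, 6.40, 10.99 and 10.96 in Mes1 to Mes5, against 12.11, 12.67, 11.61, 11.66 and 11.17 in Epi1 to Epi5. Mes1 was the brightest of all 10 lines, Mes4 and Mes5 lay just under the lowest Epi line, and Mes2 and Mes3 lay far below. The Mes lines spanned 6.66 log2 units and the Epi lines 1.50. The means were 9.57 ± 3.0 in Mes and 11.84 ± 0.57 in Epi lines. They differed by -2.27. The difference was -3.16 without Mes1 and -1.48 without Mes3. On the slide with both groups it was -3.98. Mes2 and Mes3, the low pair, are also the Mes lines most alike across all probes.

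Fgf10, the ligand that guides lung branching, varied in both groups. Its probe (chr13:119580365-119580424, plus strand, mm9) gave 8.60, 3.29, 7.32, 9.81 and 8.41 in Mes1 to Mes5 and 9.63, 10.72, 6.60, 6.68 and 9.13 in Epi1 to Epi5. Mes2 stood far below every other line, Epi3 and Epi4 were the lowest Epi lines, and the rest of the Mes lines lay inside the span of the Epi lines. The means were 7.49 ± 2.51 in Mes and 8.55 ± 1.84 in Epi lines. Their difference, -1.06, was -0.02 without Mes2 and -2.15 on the slide with both groups. Over the 10 lines Fgf7 and Fgf10 correlated at 0.67, and their deviations from the group means at 0.65. Mes2 was low for both, whereas Mes3 was as low as Mes2 for Fgf7 and much higher for Fgf10.

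Fgf2, a ligand without a classical secretion signal, was above background on all 10 arrays. The brighter probe (chr3:37303539-37303598, plus strand, mm9) gave 3.98, 3.91, 4.10, 4.02 and 5.66 in Mes1 to Mes5 and 5.93, 4.98, 3.95, 5.19 and 4.81 in Epi1 to Epi5. Mes5 and Epi3 lay outside their groups, at the level of the other group, and the groups overlapped. The means were 4.33 ± 0.74 in Mes and 4.97 ± 0.71 in Epi lines and differed by -0.64 (-0.97 without Mes5, -0.40 without Epi1 and -0.09 after normexp). The second probe, placed on chr3:37247934-37295153 and so across 47220 bases of the genome, differed by -0.67 and correlated with the first at 0.98.

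Fgf18, which signals mainly to Fgfr3 in cartilage and is also made in the developing lung, gave 5.23, 5.08, 5.0, 4.53 and 5.66 in Mes1 to Mes5 and 5.06, 5.02, 5.16, 4.57 and 4.52 in Epi1 to Epi5 (chr11:33017441-33017500, minus strand, mm9). The means were 5.10 ± 0.41 in Mes and 4.87 ± 0.29 in Epi lines, and the groups overlapped. The difference was 0.23 over all lines, 0.10 without Mes5, 0.37 without Mes4, 0.04 after normexp and -0.25 on the slide with both groups. Fgf1, which binds every Fgf receptor, and Fgf5, known from the hair cycle, were well above background on no array: the brighter Fgf1 probe gave 0.31 to 1.69 in Mes and 0.25 to 0.81 in Epi lines. The single Fgf5 probe (chr5:98705980-98706039, plus strand) gave 0.25 to 0.30 in Mes and 0.23 to 1.30 in Epi lines. At this signal a low level of either transcript would not be detectable.

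**Figure D2:**
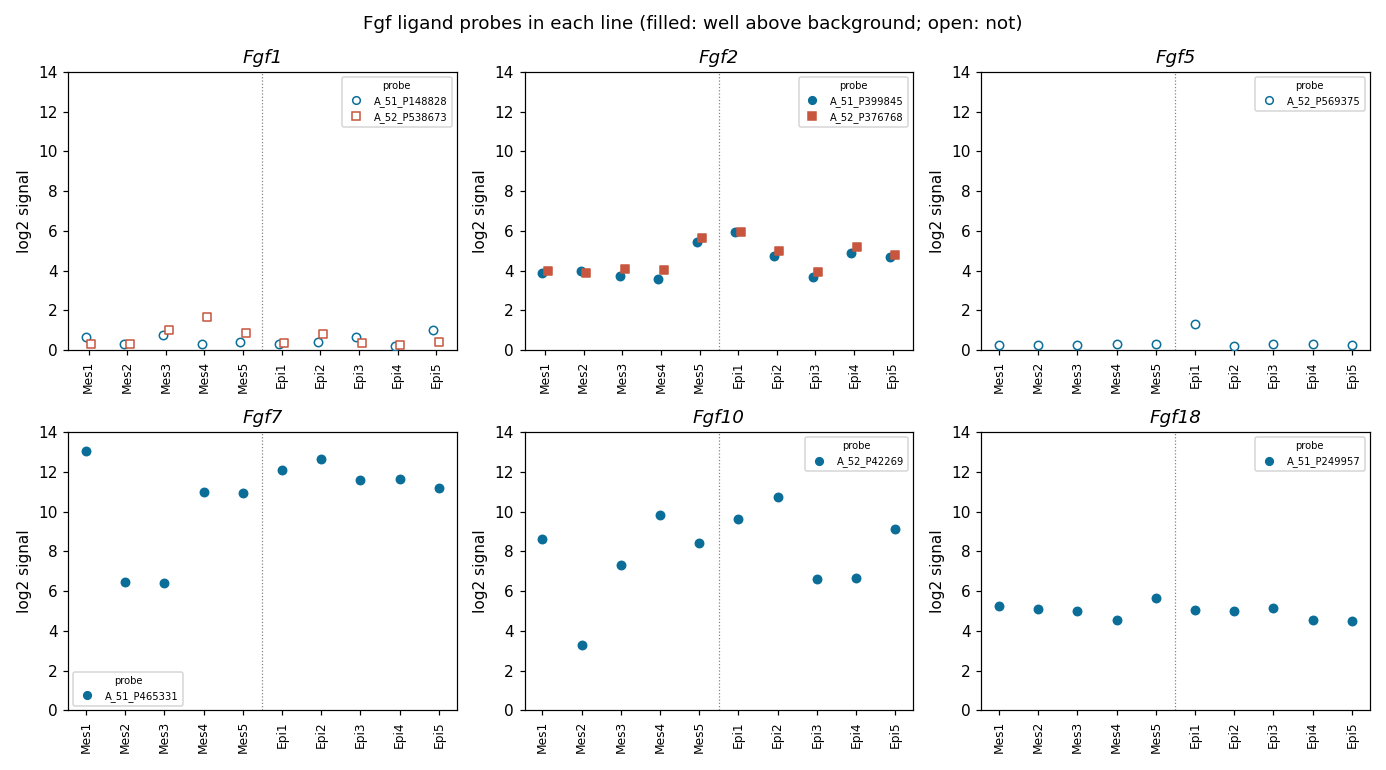
Log2 signal (y axis) of every probe of the 6 ligand genes in each line (x axis, Mes1 to Mes5, then Epi1 to Epi5, 1 array each); filled points were well above background and open points were not. Fgf7 splits the Mes lines, with Mes2 at 6.45 and Mes3 at 6.40 far below Mes1 at 13.06, and Fgf10 is lowest in Mes2 at 3.29.

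In the model fitted over all probes (limma, Benjamini-Hochberg adjusted p under 0.05 to call a gene), 8 of the 10 genes were measured well enough to be tested, and Fgf1 and Fgf5 were not. Of the 8, 1 was called, Fgfr2, which was lower in Mes lines, beside a background of 28.4% of 13202 tested genes called, 15.7% higher and 12.7% lower in Mes lines. Fgfr2 was also the 1 gene of the 8 with no overlap between the groups, beside 18.9% of all tested genes, 10.6% higher and 8.31% lower in Mes lines. The median difference of the 8 genes was -0.72, against 0.03 over all tested genes. Since the genes were chosen on this contrast, and Fgfr2 was tested only through its Epi signal, nothing is read from these counts. None of the 10 genes lies on chromosomes 4, 9 or 10, whose tested genes had median differences of 0.55, 0.71 and -0.46.

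Other genes of the pathway were grouped as other Fgf genes (the other ligands below), cofactors and adaptors, feedback and target genes, and heparan sulfate enzymes. These lists were also drawn up with earlier results on the same lines known, so their counts and p-values are not independent evidence of a direction. Fgf9, Flrt1, Sulf1 and Spred3 were tested only because the group where they are high was well above background on all its arrays. Their p-values and any lack of overlap are therefore a description. Slides and groups overlapped little, and a fit with slide as a fixed block, which sets Epi2 alone against Mes lines, called 1 gene of the 4 groups, Flrt1. With the lines that resembled each other averaged, Flrt1 and Dusp6 were called. Values on the slide with both groups stand below as within-slide values. Of 17 listed genes in the first group (genes with an Fgf symbol and the decoy receptor Fgfrl1), 16 had a probe and 6 were tested. Not all of these genes code for receptor ligands, and Fgf11 and Fgf13 among the tested ones do not. Fgf9, a ligand of lung epithelium and mesothelium, was the 1 gene called. It gave 3.24, 4.43, 3.63, 3.76 and 3.63 in Mes1 to Mes5 and 2.78, 2.96, 2.80, 3.08 and 1.34 in Epi1 to Epi5. All Mes lines lay above all Epi lines, of which 1 was above background. The raised-value fold was 1.86 (limma difference 1.15, SE 0.34, adjusted p = 0.0293, and 0.0197 to 0.624 over the alternatives). The within-slide difference was 0.74. The difference was only 0.05 after normexp and 0.09 with a floor of 16, so no minimum fold is given. The call was lost without Mes2, Mes3, Mes4 or Epi3 (adjusted p at most 0.0668). The other 5 tested genes of the group did not pass, among them Fgfrl1 at 11.01 ± 0.20 in Mes and 10.49 ± 0.50 in Epi lines, and 5 ligands (Fgf3, Fgf6, Fgf15, Fgf16 and Fgf20) were on no array. That is 16.7% called, beside 28.4% of all tested genes, and the median difference of the 6 was 0.12.

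Of 18 cofactors and adaptors, 14 were tested, 4 were higher and 1 was lower in Mes lines and 9 did not pass. That is 35.7% called, beside 28.4% of all tested genes (15.7% higher and 12.7% lower), and the median difference was 0.15. Flrt1, a membrane protein that binds Fgf receptors, gave 6.42, 6.82, 6.65, 6.16 and 5.66 in Mes1 to Mes5 and 1.72, 1.54, 1.37, 0.79 and 2.80 in Epi1 to Epi5. It was above background in all 5 Mes lines and only in Epi5 of the Epi lines. The Mes signal was higher by a raised-value fold of 13.8 (limma difference 4.70, SE 0.35, adjusted p = 3.96e-05, and at most 0.0372 over the alternatives). The within-slide difference was 4.86. With a floor of 16 the difference was 2.34, and after normexp it was 0.61. Frs2, the docking protein that the receptors phosphorylate, averaged 10.66 ± 0.27 in Mes and 11.65 ± 0.38 in Epi lines (difference -0.99, within slide -0.47, limma adjusted p = 0.00679). Cbl, a ubiquitin ligase that sends active receptors to degradation, averaged 8.43 ± 0.17 in Mes and 7.62 ± 0.33 in Epi lines (difference 0.81, within slide 1.37, limma adjusted p = 0.00811). Sos1 and Sos2, the exchange factors that load Ras with GTP, were higher in Mes lines by 0.68 and 0.71 (limma adjusted p = 0.00630 and 0.0166). Frs2 lies on chromosome 10 and Cbl on chromosome 9, and the part that the medians of those chromosomes have in their differences was not tested.

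Of 21 feedback and target genes, 18 were tested, 0 were higher and 7 were lower in Mes lines and 11 did not pass. That is 38.9% called, beside 28.4% of all tested genes (12.7% lower in Mes lines). The median difference was -0.65. Dusp6, a phosphatase that turns off the MAP kinase ERK and is a standard readout of Fgf signalling, gave 9.21, 9.32, 9.08, 7.99 and 8.18 in Mes1 to Mes5 and 12.64, 10.45, 11.49, 10.72 and 10.97 in Epi1 to Epi5. All Mes lines lay below all Epi lines, and Mes4 and Mes5, the lines low in Fgfr1, were lowest. The difference was -2.50 (SE 0.43, limma adjusted p = 0.00275). With slide as a fixed block it was -1.91 and no longer passed (limma adjusted p = 0.266, and 0.00172 to 0.266 over the alternatives). Dusp6 lies on chromosome 10, whose tested genes had a median of -0.46.

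The ETS factors Etv1, Etv4 and Etv5, which ERK signalling induces, were all lower in Mes lines. Etv1 gave 9.46, 4.87, 8.09, 5.72 and 8.42 in Mes1 to Mes5 and 10.68, 10.53, 10.22, 10.71 and 10.61 in Epi1 to Epi5, with the Epi lines tightly together and Mes2 and Mes4 far below (difference -3.24, SE 0.76, within slide -3.62, limma adjusted p = 0.0119). Etv4 gave 7.77, 6.16, 8.60, 3.33 and 7.83 in Mes1 to Mes5 and 10.11, 9.88, 8.73, 9.70 and 9.01 in Epi1 to Epi5. Mes4 was lowest, and Mes3 lay just under Epi3 (difference -2.75, SE 0.86, within slide -3.91, limma adjusted p = 0.0364). Etv5 gave 4.47, 5.46, 5.64, 3.33 and 4.28 in Mes1 to Mes5 and 6.83, 6.04, 5.92, 5.79 and 5.64 in Epi1 to Epi5, so that Mes3 and Epi5 met (difference -1.41, SE 0.42, within slide -1.55, limma adjusted p = 0.0310). Leaving out Mes2 or any 1 Epi line ended the call of Etv4 (limma adjusted p at most 0.0782, and 0.0127 to 0.280 over all alternatives). Leaving out Mes1, Mes4, Mes5, Epi1, Epi3 or Epi4 ended that of Etv5 (at most 0.0640, and 0.0203 to 0.397 over all alternatives), whose difference was -0.23 after normexp.

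The remaining readouts were mixed. The immediate early gene Fos averaged 5.50 ± 0.90 in Mes and 7.52 ± 0.89 in Epi lines (difference -2.02, within slide -1.55, limma adjusted p = 0.0151), and Phlda1 and Spred3 were lower in Mes lines by differences of -1.72 and -1.18 (limma adjusted p = 0.0134 and 0.0417). Spred3 lost its call without Mes2, Mes4, Mes5 or any 1 Epi line, and under most other alternatives, among them 75th percentile scaling, normexp and a floor of 16. The tested Sprouty genes, inhibitors of receptor tyrosine kinases, did not pass. Spry1 averaged 10.45 ± 0.75 in Mes and 11.12 ± 0.89 in Epi lines (difference -0.67, limma adjusted p = 0.309), Spry2 averaged 9.68 ± 0.58 in Mes and 9.75 ± 0.71 in Epi lines (difference -0.06, limma adjusted p = 0.916), and Spry4 was above background on no array. Without chromosomes 4, 9 and 10, 4 of the feedback and target genes were called, Etv1, Etv4, Etv5 and Fos.

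**Figure D3:**
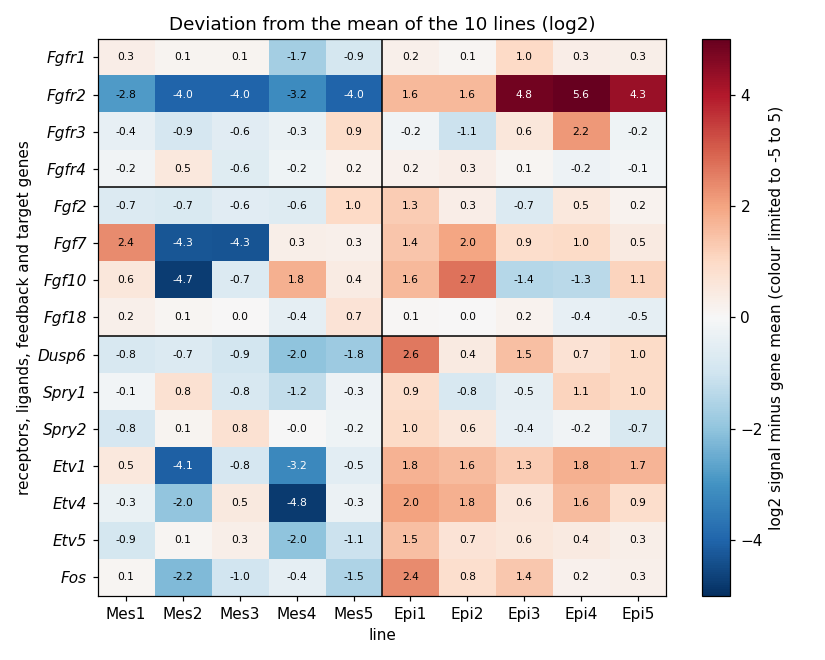
Difference of each line (columns, Mes1 to Mes5, then Epi1 to Epi5) from the gene's mean over the 10 lines, in log2 units, for the 4 receptors, the 4 ligands above background and 7 feedback and target genes (red above, blue below the mean; numbers are the values). Fgfr2 and Dusp6 are below their means in every Mes line and above in every Epi line, while Fgf7 is high in Mes1 and low in Mes2 and Mes3.

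Of 18 heparan sulfate enzymes, 14 were tested, 1 was higher and 3 were lower in Mes lines and 10 did not pass. That is 28.6% called, the share found over all tested genes (28.4%), and the median difference was -0.06. Sulf1, an extracellular sulfatase that trims the sulfate groups Fgf ligands bind, gave 5.50, 0.22, 0.22, 0.26 and 5.73 in Mes1 to Mes5 and 9.99, 8.51, 6.80, 6.66 and 10.95 in Epi1 to Epi5. It was above background in Mes1 and Mes5 and in all 5 Epi lines. The Epi signal was higher by a raised-value fold of 30.5 (limma difference -6.20, SE 1.37, within slide -8.27, adjusted p = 0.00893). The difference was -3.94 with a floor of 16 and -1.85 after normexp. Hs6st1, a sulfotransferase that adds such groups, averaged 12.42 ± 0.63 in Mes and 13.85 ± 0.41 in Epi lines (difference -1.43, within slide -0.54, limma adjusted p = 0.00812). Extl2, a glycosyltransferase, averaged 10.43 ± 0.15 in Mes and 11.05 ± 0.28 in Epi lines (difference -0.62, within slide -0.32, limma adjusted p = 0.0165). Glce, an epimerase that modifies the chain, was the gene higher in Mes lines, and lies on chromosome 9. It averaged 12.58 ± 0.49 in Mes and 11.30 ± 0.23 in Epi lines (difference 1.28, within slide 1.37, limma adjusted p = 0.00362).

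**Figure D4:**
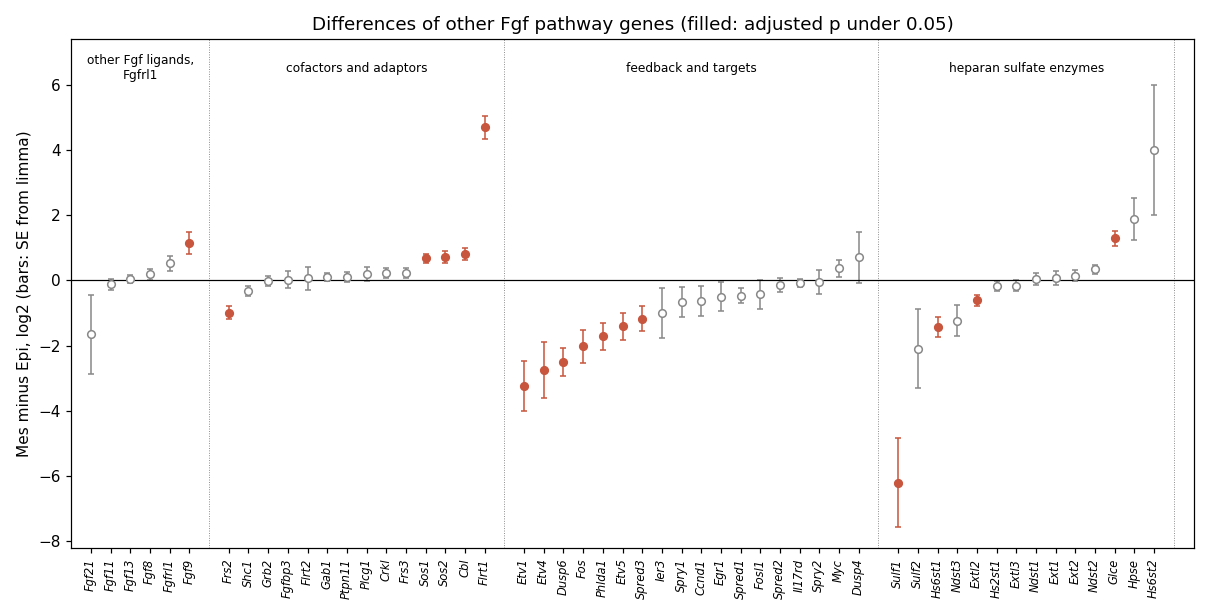
Difference between Mes and Epi lines (y axis, log2, Mes minus Epi, bars are the SE from limma, n = 5 lines each) for each tested gene of the 4 pathway lists (x axis, ordered by size within a list); filled points passed an adjusted p of 0.05. The 7 filled feedback and target genes all lie below 0, and Flrt1 at 4.70 and Sulf1 at -6.20 include arrays not above background and are 0.61 and -1.85 after normexp.

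Genes whose pattern over the 10 lines was most like that of a receptor or ligand were looked up among the 13202 tested genes, as a description (Pearson r over 10 lines that share their group means, with r of the deviations from the group means after it). For Fgfr1 these were Cdk18 (0.96, 0.95), Tmsb4x (0.95, 0.94) and Rgmb (0.94, 0.92). Tmsb4x, which codes for an actin-binding peptide, gave 15.22, 14.61, 15.19, 7.38 and 10.48 in Mes1 to Mes5 and 16.21 to 17.22 in Epi lines, low in Mes4 and Mes5 as Fgfr1 was. For Fgf7 they were Mbp (0.98, 0.97), Hnrnpa1 (0.96, 0.98) and Trim68 (0.96, 0.96). Trim68 gave 8.70, 0.74, 0.15, 6.77 and 4.39 in Mes1 to Mes5 and 7.61 to 8.56 in Epi lines, so Mes2 and Mes3 were again the low pair. For Fgfr2, which was added after its values were seen, they were Pcp4l1 (0.99, 0.88), Srgap1 (0.98, 0.83) and Marcks (0.98, 0.88). The Fgfr2 values of the Mes lines in these correlations are under the background limit. Marcks gave 12.42 to 13.35 in Mes lines and 14.44, 14.05, 15.07, 15.31 and 14.95 in Epi1 to Epi5, higher in Epi3, Epi4 and Epi5 than in Epi1 and Epi2 as Fgfr2 was. The 3 Epi lines that carried most Fgfr2 are those that resembled each other across all probes.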

How the data were processed

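Total RNA of 10 single-clone lines (5 Mes, 5 Epi, grouped by title) was hybridised to 1-colour Agilent arrays. The deposited scanner files hold intensity values from Feature Extraction 10.7 (10.7.3.1 per the file headers), background-subtracted and detrended within each array. The authors' deposited table holds log2 values, quantile-normalized in GeneSpring 11.0 per the series text, and each column correlated with its own array at 0.99959 to 0.99993. It named 34893 of the probes, on mm9. Symbols were updated through RefSeq for 33405.

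Control spots (1639) and 46 to 87 outlier spots per array were left out. Processed intensity was quantile-normalized with a floor of 1, and log2 was taken. A probe was tested when well above background on all 5 arrays of a group (24475 probes), and a gene was its brightest tested probe (13202 genes). limma 3.58.1 in R 4.3.3 was fitted over all tested probes, with Benjamini-Hochberg adjustment and a threshold of 0.05, and was tested on simulated data. No spot was saturated. The number of arrays limits the precision.

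The members and lists were chosen with earlier results of these data known. Named were all members, the readouts Spry1, Spry2, Spry4, Dusp6, Etv4 and Etv5, up to 4 called genes per list with the largest difference, and the 3 genes most like the brightest receptor and ligand. Sos1, Phlda1, Spred3, Fgfrl1 and the ligands on no array were named after their values were seen. Some cell type markers are not reported here.

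Deviations of same-numbered Mes and Epi lines correlated at 0.03 to 0.05. Such values cannot exclude a shared tumour, and the main fit did not pair lines by number. Slide was read from the barcode of each array's file: slide 1 held Epi1, Epi3, Epi4 and Epi5, slide 2 held Mes3, Mes4 and Epi2, and slide 3 held Mes1, Mes2 and Mes5. Alternatives were 75th percentile scaling, normexp with an offset of 50 on median signals, the deposited log2 table, other filters, slide blocks (statmod 1.5.0), the replicate number as a block, a floor of 16, a mean over probes, similar lines averaged, each line left out, and, added after the data were seen, removal of chromosomes 4, 9 and 10.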

Additional observations from a re-analysis of the deposited data

Results flagged for a closer look

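In 54 groups of 5 lines (the named genes in the Mes and in the Epi group), 5 held a line whose gap to the nearest other line, divided by the range of the group, was above 0.71, where chance gives about 1 in 20 groups. Fgfr1 was high in Epi3, at 10.17, with the other Epi lines at 9.27 to 9.50. Fgf2 was high in Mes5, at 5.66, with the other Mes lines at 3.91 to 4.10. Fgf9 was low in Epi5, at 1.34 and not above background, with the other Epi lines at 2.78 to 3.08. Fgf1 in Epi2, at 0.81 (others 0.25 to 0.40), and Fgf5 in Epi1, at 1.30 (others 0.23 to 0.32), stood apart on arrays where neither was above background.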

How the results depend on the processing

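Over all tested genes 3752 were called, against 97 with slide as a fixed block, 989 with similar lines averaged, 2388 without chromosomes 4, 9 and 10, and 2668 (without Epi3) to 4131 (without Mes1) with 1 line left out. Of the receptors and ligands, 1 was called, 0 with slide as a fixed block (limma, 1 at an unadjusted p under 0.05) and 0 among probes above background on all 10 arrays (0 unadjusted, since Fgfr2 was then not tested), and 1 to 2 with 1 line left out (2 without Mes1, where Fgf7 was added). Of the other ligands, 1 was called, 0 after normexp, without a filter, among probes on all 10 arrays, with slide as a fixed block, with a floor of 16 and with similar lines averaged (limma, 1, 2, 1, 1, 0 and 2 at an unadjusted p under 0.05), 2 with a mean over probes (Fgf11 added, whose probes disagree), and 0 to 2 with 1 line left out (0 without Mes2, Mes3, Mes4 or Epi3, 2 without Epi1). Cofactors and adaptors gave 5 calls, 1 with slide as a fixed block, 1 with similar lines averaged (Flrt1 in both), 3 without the 3 chromosomes, and 5 without any 1 line. Feedback and target genes gave 7 calls, 4 without a filter, 0 with slide as a fixed block (limma, 3 unadjusted), 1 with similar lines averaged (Dusp6), 4 without the 3 chromosomes, and 4 to 7 with 1 line left out (4 without Epi1, Epi3 or Epi4). Heparan sulfate enzymes gave 4 calls, 0 with slide as a fixed block (limma, 4 unadjusted), 0 with similar lines averaged (7 unadjusted), and 4 to 6 with 1 line left out. With the replicate number as a block, 2949 genes were called in all, with 1, 1, 5, 5 and 4 in these lists in the same order, and Etv4 (adjusted p = 0.0639) and Spred3 no longer passed. Spry2, at -0.06 and -0.26 to 0.17 with 1 line left out, turned to 0.14 without Mes1, 0.17 without Epi1 and 0.07 without Epi2. Slide 2 alone gave values and no test. The slide block sets Mes lines against Epi2 alone and the averaged lines leave fewer samples. The causes of the other changes were not tested.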

Other observations

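Hs6st2, a sulfotransferase of heparan sulfate, was above background in 5 Mes and 3 Epi lines, with 10.24 ± 0.19 in Mes and 6.26 ± 5.10 in Epi lines (SD, n = 5 each), the widest spread within a group among the heparan sulfate enzymes, and did not pass the test (limma adjusted p = 0.159). Hpse, the enzyme that cuts the chain, averaged 5.61 ± 1.41 in Mes and 3.73 ± 0.88 in Epi lines (limma adjusted p = 0.0551), and Sulf2 averaged 10.18 ± 2.93 in Mes and 12.27 ± 0.97 in Epi lines (limma adjusted p = 0.218). These 3 genes were named after their values were seen.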
